A study of Schizosaccharomyces pombe with 28 samples.

Results

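In fission yeast (Schizosaccharomyces pombe) cells lacking swm1, 231 of 4896 measured open reading frames (ORFs), or 4.72%, gave a lower dimethylation signal at lysine 4 of histone H3 (H3K4me2) than in wild-type cells on both arrays that compared the 2 strains. They were chosen on these same values. The log2 ratio of swm1Δ over wild-type signal had to lie at or below -0.75 on array C1 and on array C2, after the local background was subtracted and the median of each scanner file was set to 0. Their H3K4me2 ratios are therefore given as a description, without a test. At the opposite cut-off of 0.75 on both arrays, 417 ORFs (8.52%) were raised. Because every ratio is relative to the median of its array, a lower value means a lower ratio of the strains than at the median ORF and does not give the absolute amount of the mark.

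H3K4me2 is a mark of nucleosomes near the start of transcribed genes and is laid down by the Set1 complex. Swm1 and Swm2 are SWIRM-domain relatives of the mammalian demethylase LSD1, which removes methyl groups from H3K4 or H3K9 by an amine oxidase reaction, and H3K9me2 marks the silent chromatin of centromeres, telomeres and the mating-type locus. Hrp1 and Hrp3 are CHD-family ATP-dependent remodellers that bind chromatin and take part in the removal of nucleosomes.

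The strain under study carried a deletion of the whole swm1 ORF, replaced by the drug resistance marker Clonat, and it was compared with the wild type. The methods name a background auxotrophic for leucine, uracil and adenine for the tagged strains and do not name one for the deletion. The study's text states that this deletion lengthened the cell doubling time, so growth rate and genotype cannot be told apart. Chromatin immunoprecipitates of both strains were hybridised together, with the swm1Δ sample in Cy3 on array C1 and in Cy5 on array C2, and each ORF had 2 spots per array. H3K9me2 was compared between the same strains on arrays B1 and B2. Binding of myc-tagged Hrp1 and Hrp3 was measured as immunoprecipitate (IP) against input on 3 arrays each, in cells that carry swm1. Histone H3 was measured on 3 arrays in hrp1Δ cells, also as IP and input, so neither the Hrp nor the H3 arrays hold swm1Δ material. The methods describe independent immunoprecipitates for the 2 arrays of each mark and do not say whether they came from separate cultures, so p-values measure the spread between arrays, which may be technical.

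The members included many short genes. The coding sequences of 4 of them, the single-exon members of at most 300 bases with the lowest H3K4me2 ratios, show what such a target looks like. They were taken from the RefSeq ASM294v3 assembly and run 5′ to 3′ on the coding strand, with the start and stop codons in capitals. The sequences spotted on the arrays are not given in the sources used here.
SPAC27E2.11c: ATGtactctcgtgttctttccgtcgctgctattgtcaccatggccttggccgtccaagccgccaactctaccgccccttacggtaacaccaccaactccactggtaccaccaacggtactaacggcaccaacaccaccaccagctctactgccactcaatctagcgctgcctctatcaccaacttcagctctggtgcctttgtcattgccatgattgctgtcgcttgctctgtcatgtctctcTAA
tfb5: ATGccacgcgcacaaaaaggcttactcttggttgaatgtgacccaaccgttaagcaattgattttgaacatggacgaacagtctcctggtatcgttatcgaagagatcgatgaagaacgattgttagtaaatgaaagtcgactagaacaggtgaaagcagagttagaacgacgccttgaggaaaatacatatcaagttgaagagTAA
SPAC7D4.08: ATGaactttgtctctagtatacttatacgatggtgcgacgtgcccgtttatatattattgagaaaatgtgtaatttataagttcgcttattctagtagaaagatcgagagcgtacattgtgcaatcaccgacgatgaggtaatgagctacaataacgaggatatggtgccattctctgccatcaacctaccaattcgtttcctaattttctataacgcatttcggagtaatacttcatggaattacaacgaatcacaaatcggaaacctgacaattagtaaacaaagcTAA
hsp9: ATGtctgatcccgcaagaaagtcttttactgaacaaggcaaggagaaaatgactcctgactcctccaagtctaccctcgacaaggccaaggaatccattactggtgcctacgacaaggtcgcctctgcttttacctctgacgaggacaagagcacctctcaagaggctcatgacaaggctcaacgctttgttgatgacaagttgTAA
SPAC27E2.11c lies at I:4009573-4009818 on the minus strand and encodes a 246-base reading frame of a Schizosaccharomyces-specific protein with a GC content of 53.7%. The gene tfb5 (II:2809874-2810080, plus strand, 207 bases, 41.1% GC) encodes a subunit of the transcription factor TFIIH. SPAC7D4.08 lies at I:2625042-2625332 on the minus strand, with 291 bases and 36.8% GC. The gene hsp9 (I:5320399-5320605, minus strand, 207 bases, 48.3% GC) encodes a heat shock protein of the plasma membrane.

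Arrays C1 and C2 correlated over all ORFs with Pearson's r = 0.617 and Spearman's rho = 0.666 (4887 ORFs, which are not independent replicates). The H3K9me2 arrays B1 and B2 hardly correlated (Pearson's r = 0.029), and the ORF and intergenic labels of array B1 assign the dyes in opposite ways. The intergenic label of B1, with swm1Δ in Cy5, was followed here, and the opposite reading is given beside it. Replicate 2 of Hrp1 and replicate 1 of Hrp3 also stood apart from the other arrays of their groups, with Pearson's r of -0.116 and -0.149 and of -0.198 and -0.241, where the remaining pairs reached 0.538 and 0.677. Results that rest on these arrays are given with and without them. Hrp1 replicate 1 and H3 replicate 1 carry another code in their titles than the other Hrp and H3 ORF arrays, and its meaning is not stated. Between measures, Hrp1 replicate 2 and H3 replicate 3 had Pearson's r = -0.541. Hrp1 replicate 1 and H3 replicate 1 had 0.42, and the reasons were not tested.

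The targeted gene checked the H3K4me2 labels. The swm1 ORF (SPBC146.09c, listed as lsd1 in RefSeq) had the lowest ratios of all members, -5.28 on C1 and -4.48 on C2. Its background-subtracted signal was 139.5 in swm1Δ cells and 13916.2 in wild-type cells on C1, and 806.8 in swm1Δ cells and 4072.2 in wild-type cells on C2. Both arrays thus read the deleted ORF as depleted in the strain labelled swm1Δ, and this member reports missing DNA and not the mark. On the H3K9me2 arrays the same ORF had ratios of 3.19 on B1 and -1.25 on B2. The B1 value came from 1 spot above background, at 143 in swm1Δ cells and 4 in wild-type cells, and it becomes -3.19 when the dyes are read as the ORF label of B1 gives them, so array B1 as read here goes against the deletion at a dim spot.

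The members had a median ratio of -1.11 on C1 and -1.02 on C2, against medians of 0.05 and -0.05 over all ORFs. The median difference between the arrays was 0.26 in size, and 137 of 231 were lower on C1 than on C2. At or below -1 on both arrays lay 90 members, at or below -1.5 lay 11, and at or below -2 lay 4. All 4 spots were measured and at or below -0.75 for 171 members, and every measured spot was for 172, which adds cnp3 with 3 spots. The plot of array C1 against array C2 shows how the members continue the cloud of all ORFs at its lower left without a gap.

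**Figure D1:**
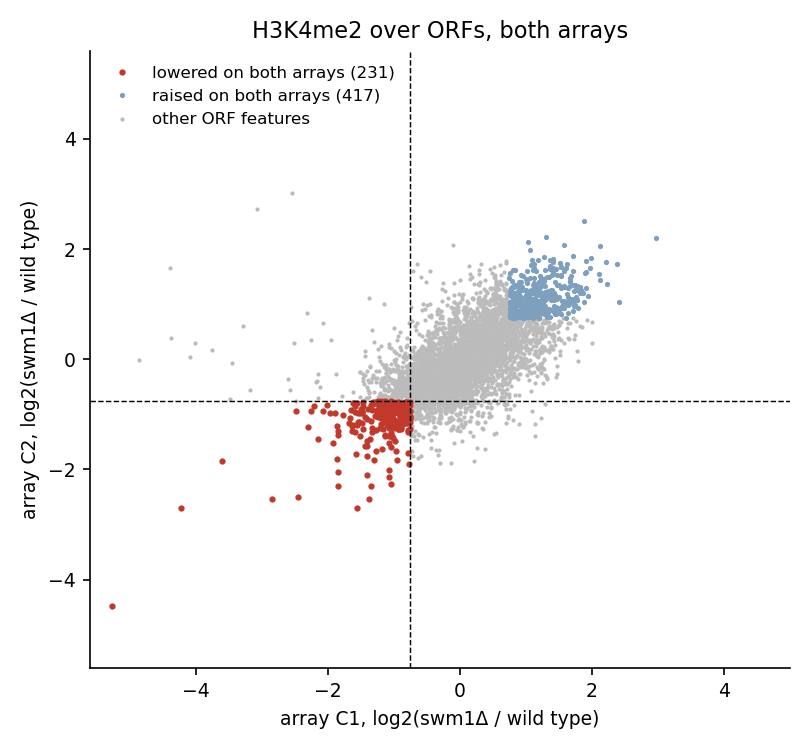
H3K4me2 log2 ratio of swm1Δ over wild type for each ORF on array C1 (x axis) and array C2 (y axis), with the 231 lowered ORFs in red, the 417 raised ORFs in blue and other ORFs in grey. The deleted swm1 ORF is the lowest point, at -5.28 and -4.48, and 90 of the members lie at or below -1 on both arrays.

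The cut-off divided ORFs with very similar values. Just inside it were ess1 (SPBC2D10.03c) with -0.75 on C1 and -1.14 on C2, the amino acid permease gene aat1 (SPBC359.03c) with -0.75 and -1.02, and abz2 (SPBC19G7.02), which encodes a lyase of 4-aminobenzoate synthesis, with -1.20 and -0.76. Just outside it were the methyltransferase gene mam4 with -1.08 and -0.75, ftp105 (SPAC17A5.16) with -2.49 and -0.75, and the thioredoxin gene trx2 (SPBC12D12.07c) with -0.75 and -1.25.

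Among the members with the lowest mean ratios, several encoded metabolic enzymes and cell surface proteins. The gene urh1 (SPBC1683.06c), which encodes a uridine ribohydrolase that splits uridine into uracil and ribose, had -2.45 on C1 and -2.51 on C2. Its C1 signal was 1754.5 in swm1Δ cells and 25071 in wild-type cells. The spread between its arrays was among the smallest of this set. The cell surface glycoprotein gene pfl7 (SPBC359.04c) had -1.56 and -2.70, and the gene gcd1 (SPCC794.01c), annotated as a glucose-6-phosphate 1-dehydrogenase, had -1.38 and -2.54. The glucosyltransferase gene alg6 (SPBC3F6.06c), of protein N-glycosylation, had -1.85 and -2.30. The hexose transporter gene ght4 had -1.85 and -2.04, and mmf2 (SPAC1039.10), of the Pmf1-like family linked to isoleucine synthesis, had -1.86 and -1.81. These 6 genes were all below -1.3 on both arrays, with signals of at least 1754.5 in both strains.

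Other low members had less signal or less annotation. The inner kinetochore gene cnp3 (SPBC1861.01c) had -4.23 and -2.70, but its signal on C1 was 3.5 in swm1Δ cells and 173 in wild-type cells, and 1 of its C2 spots was not above background. The mitochondrial import gene tim54 (SPBC1347.04) had -3.60 and -1.84, again from a C1 signal of 3.5 in swm1Δ cells and 250 in wild-type cells. The uncharacterized gene SPCC1884.01 had -2.85 and -2.53 from brighter spots, with 442.5 in swm1Δ cells and 8283.2 in wild-type cells on C1. The rest of the 15 lowest members carried little annotation. SPAC11D3.03c (-1.34 and -2.29), SPCC417.03 (-1.92 and -1.51) and SPAC27E2.11c (-2.16 and -1.45) are unnamed genes, mde6 (SPAC15A10.10, -1.40 and -2.10) is annotated as a muskelin, and X54421_sanger_27 (-2.30 and -1.22) is a mitochondrial probe.

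Coding length differed between the members and the other ORFs. The members had a median coding length of 741 bases (quartiles 438 and 1242, range 156 to 7014, 213 with a RefSeq match), against 1167 bases over all 4658 matched ORFs and 1839 bases for the raised ORFs. Of the ORFs of at most 300 bases, 19 of 120 (15.8%) were members. The share was 67 of 713 (9.4%) above 300 and up to 600 bases, 42 of 800 (5.25%) above 600 and up to 900 bases, and 13 of 794 (1.64%) above 1800 and up to 3000 bases. Over 3000 bases it was 9 of 350 (2.57%). Short ORFs were thus members more often than long ones in this count.

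**Figure D2:**
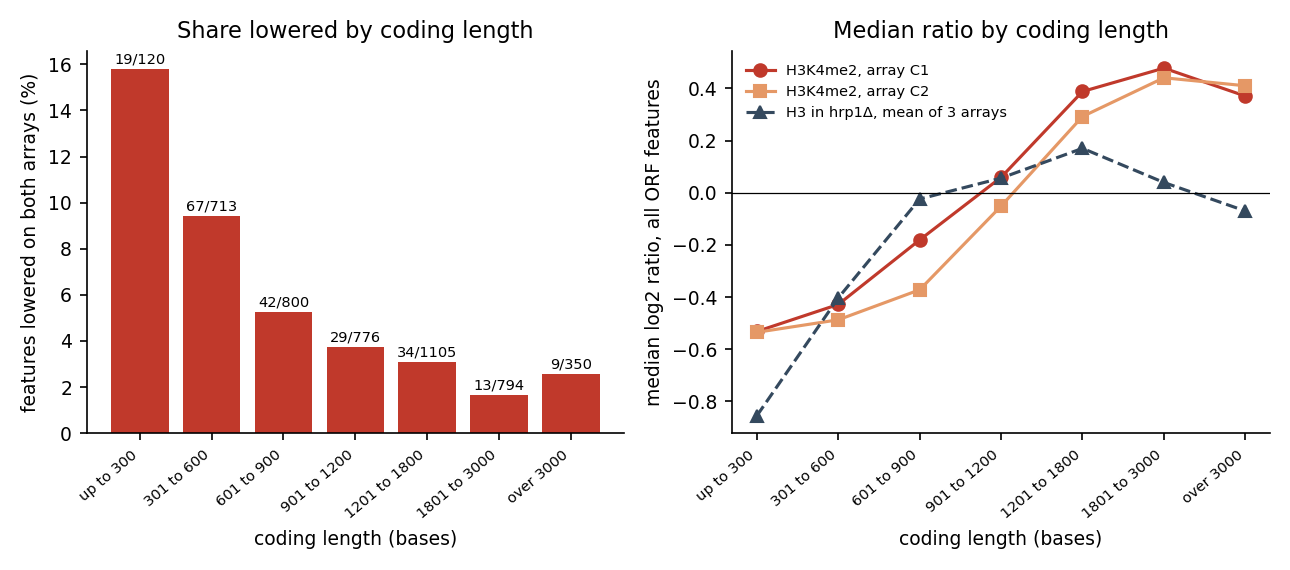
Left, percent of ORFs in each class of coding length (bases) that were lowered on both arrays, from 15.8% up to 300 bases to 2.57% over 3000 bases. Right, median log2 ratio of all ORFs in each class for H3K4me2 on C1 and C2 and for H3 in hrp1Δ cells, where the H3K4me2 medians lie near -0.53 in the shortest class and at 0.37 and 0.41 in the longest.

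The relation with length ran through the whole array and was not limited to the members. Over all ORFs, the H3K4me2 ratio followed coding length with Spearman's rho of 0.459 on C1 and 0.537 on C2, across genes, which share the array and its base composition. The same correlation was 0.008 and 0.021 on the 2 H3K9me2 arrays and 0.032 for the mean H3K4me2 ratio over intergenic regions. With the ORFs put into 10 classes of equal size by coding length and the median of each class set to 0 on each array, 221 ORFs passed the rule, of which 103 were among the 231. ORFs without a coding length, members included, had no class and could not pass there. The part of coding length in the members' ratios was not tested further. GC content was slightly lower, with a median of 38.7% for the members and 39.7% for all ORFs.

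The members were also unevenly spread over the array. Of the 4 columns of printing blocks, the first held 105 members of 1191 ORFs (8.82%), the second 64 of 1225 (5.22%), the third 36 of 1225 (2.94%) and the fourth 26 of 1255 (2.07%). The array was printed close to gene order, since 88.8% of 4621 pairs of neighbouring genes shared a block column, so place on the array and place on the chromosome are partly the same. With the median of each block column set to 0, 204 ORFs passed the rule and 174 of the 231 were among them.

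Along the chromosomes, 210 members could be placed among 4624 genes (4.54%). Chromosome I held 105 members of 2108 genes (4.98%), chromosome II 76 of 1672 (4.55%) and chromosome III 29 of 844 (3.44%). Counted from the chromosome ends, 24 of the 150 outermost genes (genes 1 to 25 of each of the 6 ends) were members, or 16%, and 16 of the next 150 (10.7%). Beyond the outer 100 genes of each end the share was 156 of 4024 (3.88%). By end, there were 20 members in the outer 100 genes at the left end of chromosome II, 10 and 12 at the left and right ends of chromosome I, 6 at the left end of chromosome III, and 3 each at the right ends of chromosomes II and III.

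Neighbouring members formed 19 runs of 2 or more genes, which held 45 members, and all 4 runs of 3 or more lay within 100 genes of a chromosome end. The longest run held the alanine racemase gene alr2 (-1.21 and -1.25 on C1 and C2), aat1, pfl7, the drug resistance transporter gene abc3 (-0.94 and -1.16) and mug14 (-1.24 and -0.81). Further in on chromosome II, urh1 was followed by the maltase gene mal1 (-1.05 and -1.12), ght4 and the ferric reductase gene frp1 (-1.19 and -1.63). Near the right end of chromosome I, the amino acid transporter gene isp5 (-0.97 and -1.67) lay beside mmf2 and the alpha-glucosidase gene gto1 (-0.88 and -0.95). The 355 other neighbours of members had a median ratio of -0.06, with 54.9% below 0, against -0.01 and 50.6% over all placed genes.

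The left end of chromosome II was lowered as a block, a stretch chosen after its values were seen. Of the outer 22 measured genes 14 were members, and 21 had ratios below 0 on both arrays, with medians of -0.93 on C1 and -1.16 on C2. The exception was pho841 (SPBC1683.01) with 0.64 and 0.36. The next 18 genes held 1 member, the transcription factor gene zas1 (-1.97 and -0.98). The 14 members of the outer 22 genes lay in block columns 1 (8) and 3 (6) and had a median coding length of 1140 bases. With each block column centred 14 of the 22 genes passed the rule, and with each length class centred 18 did. Of the 11 of these members with an intergenic region of the same name, 10 were below 0 on both intergenic H3K4me2 arrays, with a median of -1.24. Of the 6 other genes of this stretch with such a region, 5 were also below 0 on both, so this was not particular to the members. The intergenic arrays share slides and immunoprecipitates with the ORF arrays.

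**Figure D3:**
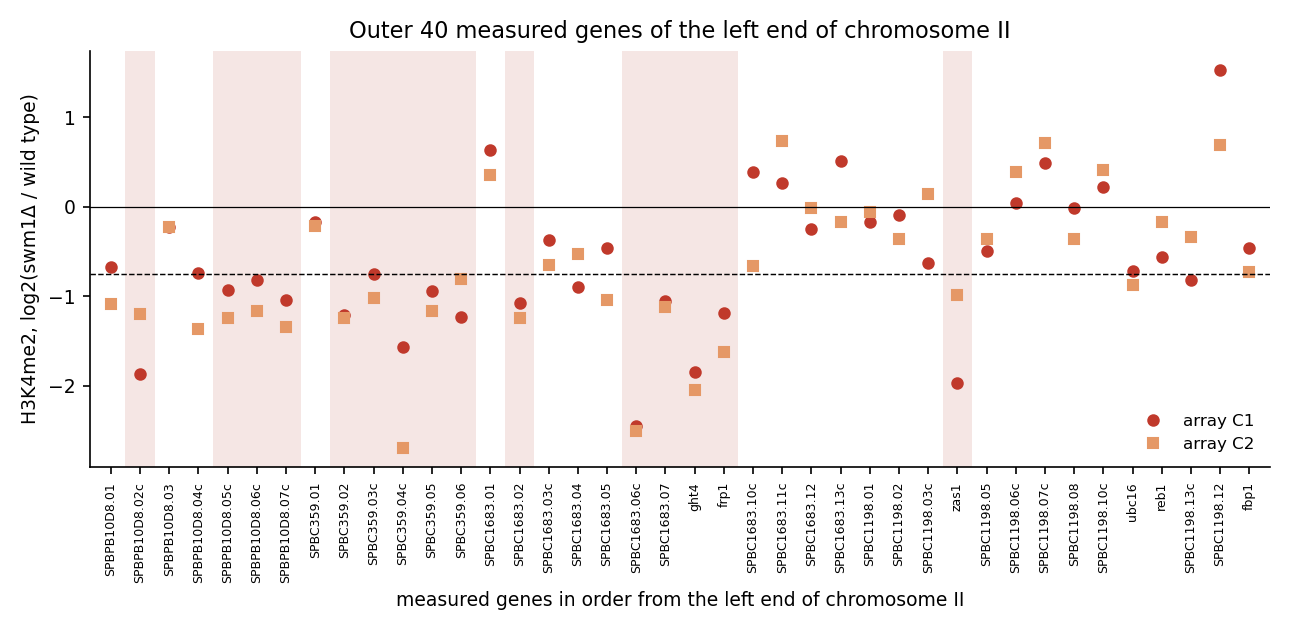
H3K4me2 log2 ratio of swm1Δ over wild type on C1 (circles) and C2 (squares) for the outer 40 measured genes of the left end of chromosome II, in gene order. Points lie below 0 on both arrays for 21 of the first 22 genes, and 1 of the next 18 genes passes the cut-off of -0.75 (dashed line).

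Within this block, SPBPB10D8.05c, SPBPB10D8.06c and SPBPB10D8.07c are transporter genes of 1140 bases with identical coding sequences, so their signals cannot be told apart. Their ratios were -0.93 and -1.24, -0.82 and -1.16, and -1.05 and -1.34 on C1 and C2, and they count as 1 independent measurement. In all, 13 of 213 members with a coding sequence shared at least 1 window of 50 bases with another place in the genome, and 5 shared most of their windows. The others of these 5 were yip1-b and SPBPB2B2.14c.

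The intergenic regions named after the members were less clearly lowered. For the 199 members with such a region, the median H3K4me2 ratio was -0.21 on intergenic array C1 and -0.22 on C2, against -0.01 and -0.03 over all regions. Below 0 on both arrays were 100 of 199 (50.3%), against 31% of all regions. These arrays are from the same slides and immunoprecipitates as the ORF arrays and give no independent support. The regions of pfl7 (-2.57 and -2.99), urh1 (-1.07 and -1.45) and mmf2 (-1.35 and -1.15) were low with their ORFs. That of ght4 was near the median with 0.01 and -0.22, and that of gcd1 was higher in swm1Δ than in wild-type cells with 1.43 and 0.70.

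By function, the members were spread thinly over the gene lists examined. Beside the deleted swm1 ORF itself, none of the other 5 measured genes of the Swm1/2 complex, none of 9 Set1 complex genes, none of 7 JmjC-domain genes and neither of the 2 CHD remodeller genes was a member. No core histone gene (0 of 9) or Tf2 retrotransposon (0 of 12) was one. Nor was any gene on the list for glycolysis and fermentation (0 of 14) or on that of tRNA and ribosome assembly names (0 of 73). The core histone genes still had mean ratios between -0.82 and -0.06, with a median of -0.31. The lists are not complete, since the pyruvate decarboxylase genes pdc102 (-1.49 and -0.94) and pdc202 (-1.06 and -1.20) were members and on none of them. The hexose transporters had 2 of 7, ght4 and ght3 (-1.09 and -0.90), and the list of respiratory chain and ATP synthase genes 7 of 58 (12.1%). Those 7 were the ATP synthase genes atp20 and atp14, the ATP synthase assembly gene atp10, the copper chaperone gene cox17, the complex III gene qcr9, and the mitochondrially encoded cox1 and cox2. The mitochondrial member cob is not on that list. The shares stand beside 4.72% of all ORFs, and no list was tested. The respiratory list had a median coding length of 585 bases, and 9.4% of all ORFs above 300 and up to 600 bases were members.

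Among 139 genes named for meiotic expression 11 were members, with mde6, meu25 (-1.41 and -1.48), isp3 (-1.48 and -0.96) and the meiotic recombination gene rec7 (-0.81 and -0.95) among them. The ribosomal protein list had 5 of 136, namely rpl37, rpl39, rps25-1, rps3 and rpp1, where rpp1 is an RNase P subunit gene caught by its name. Of 29 genes on the list of heat shock and chaperone genes 2 were members, hsp9 (-1.18 and -1.02) and hsp3104 (SPAC11D3.13, -0.96 and -1.12). RefSeq annotates hsp3104 as a ThiJ domain protein and glyoxylase. Of 67 amino acid synthesis genes 2 were, the argininosuccinate synthase gene arg12 (-1.14 and -0.90) and trp4 (-0.83 and -0.77), and of 16 purine and pyrimidine synthesis genes 1 was, ade5 (-0.78 and -0.83). The cyclin gene cig2, which acts at the G1/S transition, was the only one of 55 cell cycle genes (-1.64 and -1.30). The centromeric histone gene cnp1 had -0.87 and -0.79. Genes that RefSeq calls uncharacterized or Schizosaccharomyces specific made up 29 of the matched members (13.6%), against 275 of all matched ORFs (5.9%). Coding length, in which the members also differed, was not taken into account in these shares.

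Probes for mitochondrial DNA, which carries no histones, were 6 of the members. The mitochondrial names were singled out after their values were seen, and the X54421 names were read as mitochondrial from the record number of that genome. The cytochrome oxidase genes cox1 (-1.43 on C1 and -1.05 on C2) and cox2 (-1.89 and -0.98) and the cytochrome b gene cob (-1.48 and -1.15) were joined by X54421_sanger_23 (-2.01 and -0.83), X54421_sanger_25 (-1.64 and -1.22) and X54421_sanger_27. All 9 measured mitochondrial probes were below 0 on C1, between -3.28 and -1.43, and 7 were below 0 on C2. On C2, X54421_sanger_24 and X54421_sanger_26 were above 0 with 0.60 and 2.72, and the probe urf missed the cut-off with -0.50. Why mitochondrial probes passed the rule was not tested.

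**Figure D4:**
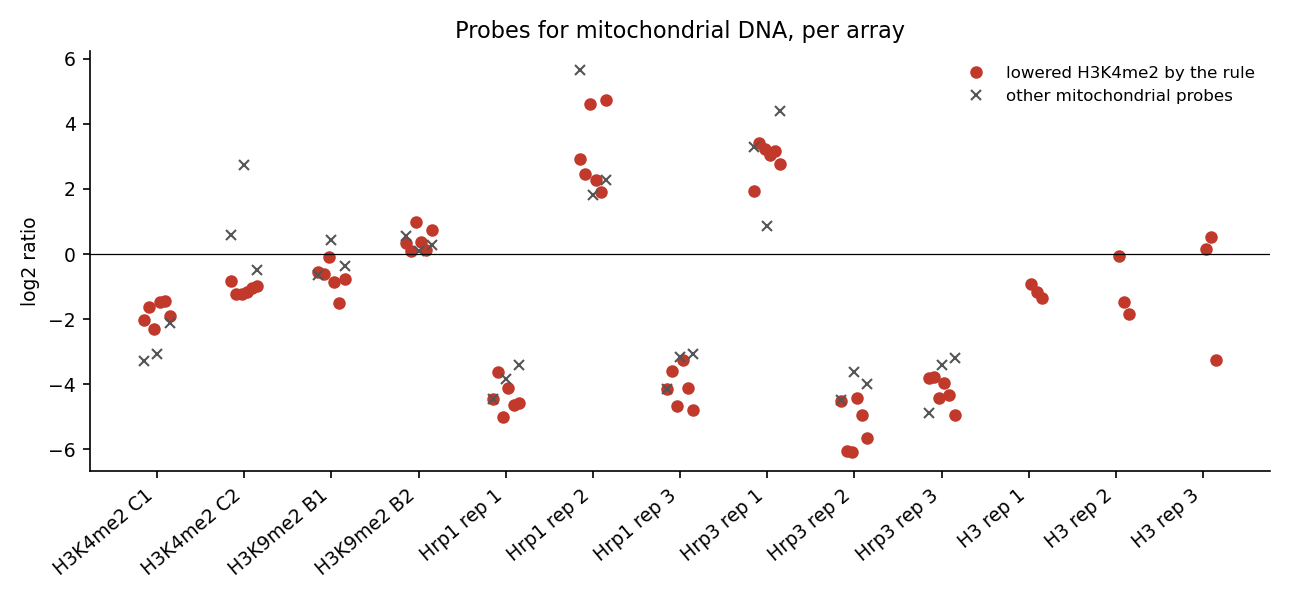
Log2 ratio of the 9 mitochondrial probes on each array, with swm1Δ over wild type for H3K4me2 and H3K9me2 and IP over input for Hrp1, Hrp3 and H3, where H3 has values for cob, cox1 and cox2 alone. The probes lie between -3.28 and -1.43 on C1, and they lie at or below -3.08 on 4 Hrp arrays and above 0 on Hrp1 replicate 2 and Hrp3 replicate 1.

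H3K9me2 was the first measure the rule did not use. None of the 228 members with values on both arrays was called by limma against 0 with Benjamini-Hochberg adjustment, where 0% of 4866 ORFs were called in either direction and the lowest adjusted p among the members was 0.8963. At an unadjusted p under 0.05, 1 member was lower and 14 were higher, against 16 (0.329%) and 209 (4.3%) of all ORFs. With B1 read by its ORF label this turned to 4 members lower and 1 higher, against 100 (2.06%) and 14 (0.288%) of all ORFs, so the excess of higher values goes with the reading of B1. Every alternative run also called 0. The members' median was 0.05 on B1 and 0.12 on B2, against -0.08 and 0.08 over all ORFs, and the quartiles of the members on B1 were -1.73 and 3.65. Read by its ORF label, B1 gave the members a median of -0.05 with quartiles of -3.65 and 1.73, against a median of 0.08 over all ORFs. With this spread and 2 arrays, a change at single members was not detectable.

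Hrp1 binding over the members was not called at any ORF with all 3 arrays. By limma, 0 of 230 members and 0% of 4883 ORFs passed, with a lowest adjusted p of 0.7435 among the members. At an unadjusted p under 0.05, 10 members were lower and 9 higher in IP than in input, against 140 (2.87%) and 172 (3.52%) of all ORFs. The members' medians were -0.22, 0.31 and -0.23 on replicates 1, 2 and 3, against -0.03, 0.07 and -0.01 over all ORFs. Replicate 2 thus moved the other way, as it did at the mitochondrial probes, which were between 1.82 and 5.65 there and between -5.02 and -3.08 on the other arrays.

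Without Hrp1 replicate 2, 19 members were called lower and 4 higher, where 2.2% of 4874 ORFs were called lower and 1.21% higher. At an unadjusted p under 0.05 these counts were 65 members lower and 19 higher, against 689 (14.1%) and 458 (9.4%) of all ORFs. The 6 mitochondrial probes were among the 19. Of the nuclear genes among them, the aminotransferase gene SPAC27F1.05c had -1.26, 0.39 and -1.12 on the 3 arrays, a mean of -1.19 over replicates 1 and 3 (adjusted p = 0.0098, limma). The RNA polymerase II subunit gene rpb4 had -1.03 and -1.13 on replicates 1 and 3 and no value on replicate 2. The highest was SPCC622.02, an uncharacterized gene with 1.98, -1.25 and 1.72 on replicates 1 to 3 (adjusted p = 0.0002 without replicate 2). With the sign of replicate 2 turned, 5 members were called lower, where 0.164% of all ORFs were, and at an unadjusted p under 0.05 47 members were lower and 5 higher, against 379 (7.76%) and 138 (2.83%) of all ORFs.

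Hrp3 binding was not called at any ORF either. With all 3 arrays limma called 0 of 230 members and 0% of 4878 ORFs, with a lowest adjusted p of 0.6982 among the members. At an unadjusted p under 0.05, 3 members were lower and 8 higher, against 76 (1.56%) and 218 (4.47%) of all ORFs. The medians of the members were 0.42, -0.41 and -0.32 on replicates 1, 2 and 3, against 0.07, 0.00 and -0.02 over all ORFs, and replicate 1 was the array that stood apart. Below 0 on both replicates 2 and 3 were 140 of 228 members (61.4%), against 37.5% of all ORFs. Over all ORFs, replicates 2 and 3 followed GC content with Spearman's rho of 0.294 and 0.374, and replicate 1 with -0.056. The part of GC content in the members' Hrp3 values was not tested.

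Without Hrp3 replicate 1, 8 members were called lower and 6 higher, where 0.6% of 4836 ORFs were called lower and 3.7% higher. At an unadjusted p under 0.05 these counts were 70 members lower (30.7%) and 19 higher (8.33%), against 664 (13.7%) and 800 (16.5%) of all ORFs, so the balance of the members turned once replicate 1 was left out. Lower were the 6 mitochondrial probes, smn1 and rtt109. The gene smn1 encodes a subunit of the SMN complex of snRNP assembly (-1.82 and -1.29 on replicates 2 and 3) and rtt109 encodes a histone H3 acetyltransferase (-1.25 and -1.48). Higher were SPAC27E2.11c, hsp9, SPBC8D2.18c, pmp20, SPAC922.04 and rpl39. SPAC27E2.11c, printed above, had -1.60, 1.90 and 2.50 on replicates 1 to 3 (adjusted p = 0.0239 without replicate 1), and hsp9 had -2.30, 1.68 and 1.97 (adjusted p = 0.0259). The gene SPBC8D2.18c, annotated as an adenosylhomocysteinase, was above 0 on all 3 arrays, with 1.09, 1.44 and 2.21. With the sign of replicate 1 turned, 2 members were called lower, where 0.103% of all ORFs were, and at an unadjusted p under 0.05 56 members were lower and 9 higher, against 431 (8.84%) and 464 (9.51%) of all ORFs.

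Histone H3 in hrp1Δ cells was the only measure with calls when all arrays were used as read here. Its deposited ratios were read as IP over input. Their direction is not stated with them and is not settled, since the positive correlation of the array with swapped dyes with the others shows only that the 3 arrays run the same way. By limma, 26 of 214 members (12.1%) were lower and 6 (2.8%) were higher, where 6.19% of 4619 ORFs were called lower and 4.74% higher. With the ratios turned, the 26 would be higher and the 6 lower, and every H3 direction below would change in the same way. Among the raised ORFs measured, 5 were lower and 32 higher. The members' medians were -0.38, -0.42 and -0.45 on replicates 1 to 3, against 0.00 on each array over all ORFs. Without replicate 2, 2 members were called lower and 0 higher, where 0.346% and 0% of all ORFs were, and without replicate 3, 1 was called lower and 0 higher, where 0.346% and 0% were. Without replicate 1, 35 were called lower and 7 higher, where 8.36% and 5.35% of all ORFs were, while the members' median stayed between -0.47 and -0.38.

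**Figure D5:**
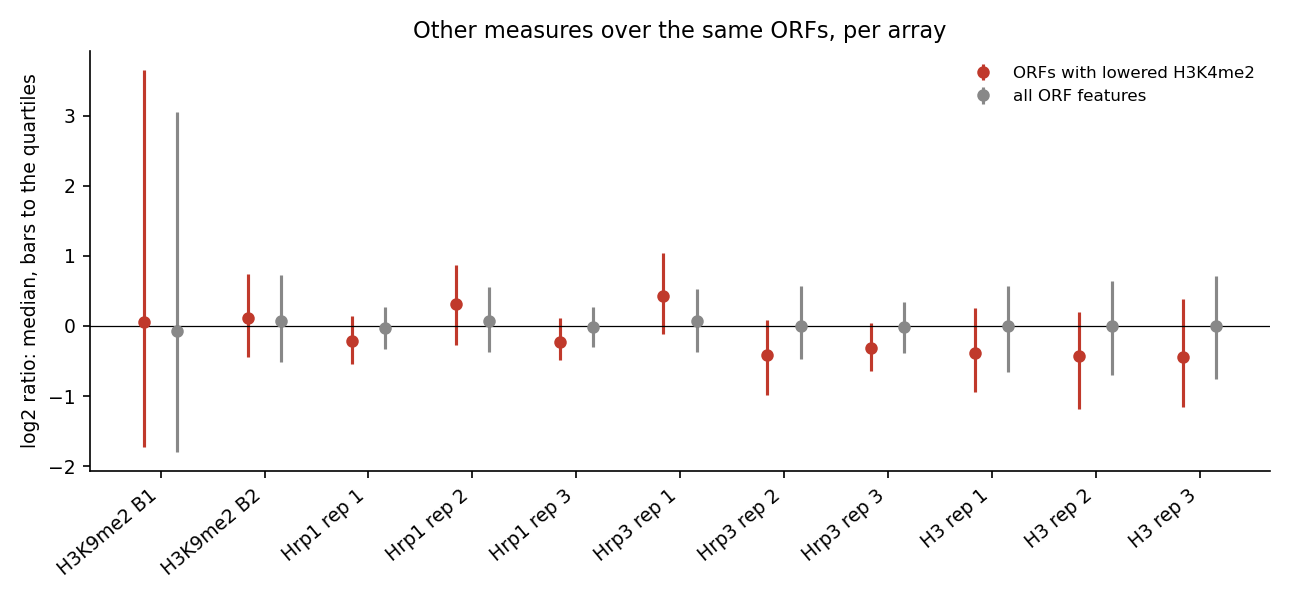
Median log2 ratio per array for the members and for all ORFs, with bars to the quartiles, for H3K9me2 (swm1Δ over wild type), Hrp1, Hrp3 and H3 (IP over input). The members lie below all ORFs on the 3 H3 arrays, as these were read, and on 4 of the 6 Hrp arrays, and above them on Hrp1 replicate 2 and Hrp3 replicate 1.

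Many of the members called lower in H3 were short genes. The gene rpb4 had -3.37, -2.80 and -6.66 on replicates 1 to 3, and both of its spots on replicate 3 were at the floor of the deposited ratios, so that value is an upper bound and no mean is given (adjusted p = 0.0205 in the limma fit, with the floor value in it). The endocytic GTPase gene ypt5 had -1.96, -3.03 and -2.16 (mean -2.38 ± 0.57, adjusted p = 0.0167), and SPAC4H3.06, an uncharacterized gene, had -2.10, -2.81 and -2.35 (mean -2.42 ± 0.36, adjusted p = 0.0167). The sorting nexin gene snx3 (grd19 on the array) had -1.75, -1.71 and -2.07, and tfb5, printed above, had -0.86, -1.43 and -2.67. All 5 were below 0 on every array as read here. The mitochondrial gene cox2, whose DNA carries no histones, was also called lower, with -1.36, -1.85 and -3.26 (adjusted p = 0.0281, limma). The 24 called lower with a coding length had a median of 410 bases, and 22 of them were at most 700 bases long.

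The H3 calls went with length over all ORFs too. Over all ORFs the mean H3 ratio followed GC content (Spearman's rho = 0.288) more closely than coding length (0.15). The part of GC content in the members' H3 values was not tested. Up to 300 bases, 5 of 17 members (29.4%) were called lower in H3, against 29.9% of all ORFs of that length, and above 300 and up to 600 bases it was 15 of 66 members (22.7%), against 13.1%. Above 900 bases, 1 member was called lower, rad13, a DNA repair nuclease gene (-2.39, -1.51 and -1.56). Within the classes of coding length the median H3 ratio of the members was also below that of all ORFs, with -0.76 against -0.40 above 300 and up to 600 bases and -0.25 against 0.17 above 1200 and up to 1800 bases. Over all ORFs, the H3 and H3K4me2 ratios correlated with Spearman's rho = 0.251 (4617 ORFs), and within the 214 members it was -0.045. These are values across genes of arrays from different strains, and how far H3 occupancy enters the H3K4me2 ratio was not tested.

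The 6 members with a higher H3 ratio included the 3 identical transporter genes SPBPB10D8.05c (1.88, 1.38 and 1.66), SPBPB10D8.06c (1.51, 1.10 and 1.23) and SPBPB10D8.07c (1.40, 1.09 and 2.19). The others were SPCC622.02 with 1.82, 1.71 and 2.17, the ribosomal protein gene rps3 with 1.37, 1.94 and 1.66, and the cytochrome b5 gene cyb502 (SPBC29A10.16c) with 2.18, 1.72 and 1.23. All 6 were above 0 on every array. The lowest H3K4me2 members were mostly not among the H3 calls, as urh1 had H3 ratios of -0.38, -0.57 and -0.61 (adjusted p = 0.2608) and pfl7 had 0.29, -0.52 and 0.75 (adjusted p = 0.76).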

How the data were processed

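H3K4me2, H3K9me2, Hrp1-myc, Hrp3-myc and H3 were measured on 2-colour spotted ORF and intergenic arrays, and 15 of 28 arrays were used. Raw intensities were deposited as scanner files, with a median signal and a local background per spot and dye. For H3 in hrp1Δ cells the deposited log2 ratios per spot were used, Lowess normalized in GeneSpring by the authors per their methods and floored at the log2 of 0.01 (4 members have a spot there). For Hrp1 and Hrp3 the authors deposited log10 values of a single dye, which were not used. Of 28 columns of the deposited tables, 19 were not used, among them those for expression, whose features carry no gene name. Groups and dyes came from the labels, except for array B1.

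Each ORF array held 5917 features in 2 spots, of which 867 were controls and 154 missing. Spots above background in both dyes were median centred per scanner file and averaged per feature. Ratios were tested against 0 with limma 3.58.1 in R 4.3.3, over features with at least 2 arrays, with Benjamini-Hochberg adjustment at 0.05. Python 3.11.15, numpy 2.4.6, pandas 2.3.3 and scipy 1.17.1 made the tables. The limma step was also run on simulated arrays with independent noise. These hold no array that runs against the others, so they do not bear on the arrays that stood apart. Genes, lengths, order and sequences came from RefSeq ASM294v3, which matched 4660 features. The authors' genome build is not given in the sources used here. The number of arrays limits the precision.

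Genes are named if they are among the 15 lowest members, the 3 on each side of the cut-off, members that neighbour members, members called by limma in another measure, or members of the gene lists. The mitochondrial probes, the outer genes of chromosome II, the pyruvate decarboxylase genes and genes called only without an array were chosen after their values were seen. The members, lists and rules were chosen with earlier results of these data known.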

Additional observations from a re-analysis of the deposited data

How the results depend on the processing

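The number of ORFs at or below the cut-off on both H3K4me2 arrays was 534 at a cut-off of -0.5 and 90 at -1.0, against 231. It was 131, all among the 231, with normexp background correction (offset 50), and 561 with either array alone. Under loess, no background subtraction, the deposited ratios, spots at 1.5 times background, every spot at the cut-off, block column or length centring, and both spots above background it lay between 172 and 233. These were not always the same ORFs. Of the 231, 196 stayed with loess, 167 without subtraction and 197 with the deposited ratios. Block column centring kept 174 of the 231, and length centring kept 103. The members' median H3K9me2 ratio, 0.19, was 0.0398 with array B1 read by its ORF label, -0.0919 with bright spots, -0.0197 with the deposited values, 0.0173 with loess, -0.17 without subtraction, 0.38 at a cut-off of -1.0, and 0.0516 to 0.12 with 1 array. Members called were 0 for H3K9me2 under all alternatives run. For Hrp1 they were 5 with the sign of replicate 2 turned and 0 to 23 with 1 array left out, and for Hrp3 2 with the sign of replicate 1 turned and 0 to 14 with 1 array left out. For H3 they were 1 to 42, against 32, with 1 array left out, with a median of -0.47 to -0.38, and the median was -0.31 at a cut-off of -1.0. With the signs of the 3 H3 arrays turned it was 0.42. The members' median intergenic H3K4me2 ratio, -0.24, was -0.18 with loess, -0.16 with the deposited ratios and -0.22 to -0.21 with 1 array. The cause of these moves was not tested.

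No paired analysis was possible because each ratio already compares both samples within 1 array. The expression comparison and the deposited Hrp values were not run, and H3K9me2 with 1 array has no residual degrees of freedom, so its median alone is given. Centring by block column or length, both spots above background, turned signs, H3 included, and the medians were alternatives chosen after seeing the data. Bounds from dim spots, 2 or 3 arrays a group and unsettled dye directions limit what these values show.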
